A study of Drosophila melanogaster with 16 samples.

Results

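This report describes the genes expressed by untreated S2 cells and the genes whose levels differed between cells grown in October and cells grown in December. S2 is a Drosophila melanogaster line that was established from late embryos, grows in suspension and is related to hemocytes, the blood cells of the fly. The members were all genes with 10 or more counts in total over the 6 libraries of untreated wild type (WT) cells, 3 from October and 3 from December. They numbered 11657 of the 17737 genes in the count table. A further 2604 genes had 1 to 9 counts, and 3476 had none in these libraries.

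The series measured total RNA, depleted of ribosomal RNA and sequenced from both ends, in 16 libraries. WT cells carried no named allele and received no agent. The other libraries came from cells treated with siRNA against PARP1 (KD; 4 libraries from October and 3 from December) and from cells given 10 µM of the PARP inhibitor PJ34 for 16 h (3 libraries from December), and the inhibitor libraries were not used here. All groups were grown in Schneider's medium with 10% fetal bovine serum and antibiotics at 25 °C, and the labels state that growth time and density were matched. The labels name the month and the replicate number, and do not say which passage, medium lot, extraction or library preparation a month stands for, so that month, culture and library batch cannot be told apart. Because nothing in the labels says that replicates came from separate cultures, p-values measure the spread between these libraries, which may be technical. Each library was a bulk sample, in which fewer cells of a type and less RNA per cell cannot be told apart.

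Hemocytes patrol the open circulation of the fly, engulf dead cells and microbes through scavenger and Nimrod receptors, clot hemolymph, and lay down much of the basement membrane, a sheet of collagen IV, laminin and heparan sulfate proteoglycan. Cultured hemocyte-like cells also divide without limit, which draws on ribosome assembly, DNA replication, lipid synthesis and secretion. Heat shock proteins, glutathione S-transferases and cytochrome P450 enzymes are the inducible arms of protein folding and of detoxification, and metallothioneins and ferritin bind metal ions.

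Counts assigned to genes were 58531662 to 61728755 per library in October and 84904964 to 90439074 in December. Levels are given as CPM, a library's counts scaled to a common total, after scaling by trimmed mean of M values (TMM), and differences as log2 of October over December with the standard error (SE), so that a positive value is higher in October. Over genes, log CPM correlated at r = 0.991 to 0.994 between libraries of the same month and at 0.965 to 0.971 between months, where genes are not independent replicates. Replicates differed by more than counting error (chi-square per gene of 15.5 to 59.8, where 1 would be counting error alone), so that no library was a copy of another. December replicate 3 stood apart in immune genes, as given below with those genes. Parp1, the gene targeted in the KD libraries, had 89.7, 89.1 and 73.0 against 186, 195 and 169.9 CPM in WT, October against December (-1.13 ± 0.08, adjusted p = 9.5e-11). In the KD libraries it had 73.4, 77.4, 84.0 and 72.6 CPM in October and 171, 178 and 147 CPM in December. KD and WT libraries were scaled separately, so that their CPM are not strictly on a common scale. On these values the Parp1 mRNA was not clearly below that of WT, and KD against WT was not tested here. The labels state that the protein was depleted by western blot, which counts of RNA cannot check, and these libraries are called libraries labelled KD.

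Of the genes described, 7730 had a mean of 1 CPM or more and 1363 of 100 CPM or more. Protein-coding genes made up 10285 of them and non-coding RNA genes 1015, and 106 genes took 50% of all counts. Per kilobase of exon, the highest level was that of mt:lrRNA, the large ribosomal RNA of the mitochondrion, at 80940 CPM per kb. Next came RpL41 at 45410, RpLP2 at 14020, RpL39 at 12050, RpL21 at 11350, mt:CoIII at 11010, RpL29 at 10720, RpL23 at 9739, RpS23 at 9472 and RpL14 at 8762 CPM per kb. Apart from mt:CoIII, a subunit of cytochrome c oxidase encoded in the mitochondrial genome, the 8 other mRNAs in this order encode proteins of the cytoplasmic ribosome.

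Cytoplasmic ribosomal protein genes held 29.2% ± 1.07 of all counts in October and 30.7% ± 1.27 in December (SD, n = 3 each; exact two-sided permutation p = 0.2), and RNAs of the mitochondrial genome held 14.6% ± 1.39 and 13.5% ± 0.8289 (exact permutation p = 0.3). Within the latter, mitochondrial mRNAs held 3.11% ± 0.0316 in October and 3.55% ± 0.167 in December without overlap (exact permutation p = 0.1). Long non-coding RNAs held 0.436% ± 0.00838 in October and 0.318% ± 0.0173 in December, and the months did not overlap (exact permutation p = 0.1, the smallest that 3 against 3 libraries allow). The 3927 genes with a mean under 1 CPM held 0.125% ± 0.00371 in October and 0.0604% ± 0.00373 in December, again without overlap (exact permutation p = 0.1).

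Of 12 markers of hemocytes tested, 10 had a mean of 1 CPM or more, and the markers moved in both directions (4 higher and 6 lower in October). The GATA factor serpent (srp), which specifies hemocytes, had 113, 121 and 119 CPM in October and 227, 216 and 211 CPM in December. The clotting protein Hemolectin (Hml), the peroxidase Peroxidasin (Pxn), the GATA cofactor u-shaped (ush) and both collagen IV chains (Col4a1 and vkg) were, like srp, lower in October, with log2 differences of -4.30 ± 0.11, -1.55 ± 0.08, -1.10 ± 0.07, -0.87 ± 0.07 and -1.73 ± 0.07. The phagocytic receptors eater and Sr-CI and the membrane protein Hemese (He) were higher in October (0.72 ± 0.10, 3.17 ± 0.18 and 2.57 ± 0.09), as was NimC1 at 0.156, 0.196 and 0.193 against 0.0395, 0.0368 and 0.0529 CPM (2.04 ± 0.63), and the CD36-like receptor croquemort (crq) had 226, 244 and 237 against 227, 196 and 213 CPM and was not called (0.15, adjusted p = 0.054).

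Genes that mark lamellocytes, the flat cells that wall off parasites, were all higher in October. PPO3 had 15.4, 16.2 and 17.2 against 9.24, 8.86 and 9.87 CPM (0.80 ± 0.08), atilla 6.20, 5.37 and 4.88 against 1.49, 1.38 and 1.46 CPM (1.93 ± 0.14) and ItgaPS4 5.16, 3.97 and 4.01 against 2.69, 2.00 and 2.22 CPM (0.93 ± 0.15). Crystal cells carry the prophenoloxidases of melanization, and all 4 of their markers tested had a mean under 1 CPM. The transcription factor peb had 0.867, 1.03 and 1.08 against 0.737, 0.54 and 0.595 CPM and was higher (0.67 ± 0.23), a call lost without December replicate 2 (0.57, adjusted p = 0.070), and lozenge (lz), the factor that specifies these cells, was not called (1.09 ± 0.76, adjusted p = 0.21). PPO1 had 0.213, 0.106 and 0.134 against 1.19, 1.09 and 0.939 CPM (-2.81 ± 0.31), and PPO2 had no count in October and 68 counts in December, so that it was at least 19.6-fold lower in October when the October level is set at 3 counts over the 3 libraries.

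Of 49 markers of neurons, glia, muscle, fat body, germ line, ovarian somatic cells, epithelia and gut, 17 had 1 CPM or more. Below that level lay, among others, repo of glia, Lsp1gamma and Fbp1 of fat body and vas of the germ line. Other markers of glia (moody and Eaat1), and brp and para of neurons and Mlc2 and bt of muscle, lay above that level. Of these, moody and brp were lower in October, Eaat1, para and bt were higher, and Mlc2 was not called. Those above 1 CPM also included elav (38.2, 40.9 and 39.8 against 29.2, 27.1 and 27.9 CPM; 34.2% of its exon bases overlap another gene), zfh1 (451, 457 and 428 against 1106, 1027 and 951 CPM) and the germ line and Piwi pathway genes zpg, AGO3, aub and piwi. The last of these, from zpg to piwi, were higher in October, by 0.89 ± 0.08, 0.75 ± 0.07, 2.69 ± 0.13 and 1.89 ± 0.18. The list of ovarian somatic markers, which holds piwi, was split. Its other tested members fs(1)Yb and zfh1 were lower in October (-0.92 ± 0.08 and -1.21 ± 0.07). Of the complex that doubles X-linked transcription in males, the RNA roX2 (lncRNA:roX2) had 102, 119 and 128 against 148, 147 and 162 CPM (-0.39 ± 0.07), and the protein msl-2 differed by -0.49 ± 0.06, neither of which was called with plain totals. Over the 37 of these other-cell markers that were tested, 15 were higher and 6 lower in October, and their part in the results below was not tested. Over all genes tested, 32.4% were higher and 33.0% lower. The shares were 46.4% and 10.9% among genes of 0.1 to 1 CPM, and 59.0% and 17.9% among genes of 1 to 5 CPM. The counts of these markers are to be read against those shares.

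Between months, 3782 genes were higher and 3852 lower in October by edgeR's quasi-likelihood test at a Benjamini-Hochberg adjusted p below 0.05. That was 65.5% of all genes tested, with 32.4% higher and 33.0% lower, and in 70.0% of genes the 3 October values did not overlap the 3 December values. At an unadjusted p below 0.05, 7985 genes passed. Most differences were small, since 2003 genes were called and higher by 2-fold or more and 871 were called and lower by 2-fold or more. Among genes of 1 CPM or more, those counts were 706 and 594, and 224 and 72 at 4-fold or more. Of these more abundant genes 76.8% were called, 30.9% as higher and 45.9% as lower.

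The split between the directions depended on the scaling. With library totals taken without the 20 genes that had the most counts, in place of TMM, the median log2 difference of all genes went from 0.052 to 0.43, a shift of 0.38, and 6110 genes were called higher and 1932 lower. All 1932 of those were also called lower with TMM. Medians of gene groups under TMM and under plain totals are to be read against all-gene medians of 0.052 and 0.43.

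The month difference went along with the level and the length of a gene. Genes of 1 to 5 CPM had a median log2 difference of 0.60, those of 20 to 50 CPM of -0.16 and those over 500 CPM of -0.47 (4.02% called higher, 81.7% called lower). Among genes of 1 CPM or more, the median went from 0.12 in genes with under 500 exon bases to -0.58 in genes with over 8000. In that longest class 73.1% of 364 genes were lower in October. With the level held between 20 and 100 CPM, the median still fell from 0.044 to -0.67 over the same length classes. The libraries labelled KD showed the same order, from 0.40 to -0.46 over length in genes of 1 CPM or more. The labels hold no measure of RNA integrity, and the part that fragment loss, depletion or depth may have in these trends was not tested. With the trend on length removed by a spline, 3864 genes were higher and 3870 lower.

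**Figure D1:**
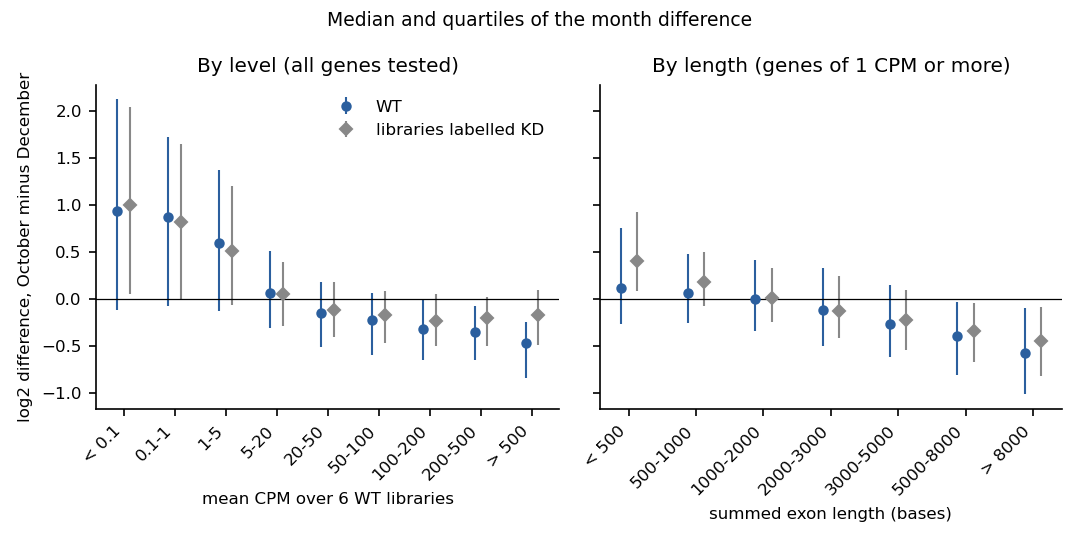
Median (points) and quartiles (lines) of the log2 difference, October minus December, by mean CPM over the 6 WT libraries (left, all genes tested) and by summed exon length in bases (right, genes of 1 CPM or more); circles are WT and diamonds the libraries labelled KD. Medians go down with level, from 0.94 under 0.1 CPM to -0.47 over 500 CPM in WT, and with length, from 0.12 to -0.58; with plain totals each WT value lies about 0.38 higher.

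The 12 largest rises among genes of 5 CPM or more were led by the uncharacterized gene CG9691 (4.63 ± 0.18, adjusted p = 2.6e-14) and the tetraspanin Tsp42Eg. Tsp42Eg, a membrane protein, had 45.7, 55.6 and 59.0 CPM in October and 3.13, 2.69 and 3.27 CPM in December, a 17.6-fold higher level (4.14 ± 0.10, adjusted p = 7.3e-17). Transferrin 1 (Tsf1; chromosome X, 18387084 to 18390344, plus strand of BDGP6), which carries iron in hemolymph, had 118, 151 and 164 CPM in October and 10.7, 8.09 and 10.9 CPM in December. It was 14.6-fold higher in October (3.87 ± 0.12, adjusted p = 1.1e-15), and every October library lay above every December library.

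CG8620, which has no assigned role here, had 48.4, 54.8 and 56.6 against 4.17, 3.44 and 2.98 CPM (3.92 ± 0.10), and the long non-coding RNA lncRNA:CR44809 had 55.7, 61.1 and 62.1 against 5.69, 5.18 and 4.39 CPM (3.55 ± 0.09). Of the remaining rises, Cyp6d2 encodes a cytochrome P450 (3.94 ± 0.13; 51.0% of its exon bases overlap another gene, so that its count is uncertain), Drep1 an inhibitor of an apoptotic nuclease (3.58 ± 0.15), Septin4 a septin GTPase (3.22 ± 0.10) and Fas1 the adhesion protein Fasciclin 1 (3.21 ± 0.11). CG31997, CG5646 and CG13196, without a named role here, rose by 3.45 ± 0.10, 3.39 ± 0.14 and 3.11 ± 0.12.

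The largest fall was that of Hml (chromosome 3L, 13846054 to 13860001, plus strand of BDGP6), a hemocyte protein of the hemolymph clot. It had 14.3, 14.7 and 18.3 CPM in October and 367, 280.5 and 282 CPM in December, a 19.6-fold lower level in October (-4.30 ± 0.11, adjusted p = 9.7e-17). In the libraries labelled KD, which the WT comparison did not use, Hml had 16.3, 11.2, 12.2 and 14.6 CPM in October and 241, 218 and 239.7 CPM in December. The months did not overlap there either, and the difference was -4.11.

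The heavy beta spectrin karst (kst), a scaffold of the membrane skeleton, had 72.6, 65.5 and 58.7 CPM in October and 745, 704 and 635 CPM in December (-3.40 ± 0.09). The secreted serine protease Tequila (teq) had 106, 106 and 100.2 CPM in October and 884, 788 and 769 CPM in December (-2.97 ± 0.07). With the length trend removed, kst and teq were still lower in October, at -2.85 and -2.51.

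The copper- and zinc-binding metallothionein MtnA had 339, 446 and 529 CPM in October and 3343, 2365 and 3550 CPM in December, a 7.04-fold lower level in October (-2.82 ± 0.14, adjusted p = 1.1e-12). The spread within each month was wide for this gene. The Pax factor gooseberry (gsb) had 2.79, 3.71 and 2.85 against 35.0, 32.0 and 31.1 CPM (-3.39 ± 0.10), the transcriptional repressor Mnt 5.14, 5.15 and 3.66 against 34.0, 29.3 and 30.1 CPM (-2.74 ± 0.10), and the Slit receptor robo2 6.79, 5.98 and 4.37 against 40.1, 35.9 and 38.8 CPM (-2.74 ± 0.11; 41.0% exon overlap).

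The splicing factor subunit Sf3b3 fell by 2.91 ± 0.16, with 57.9% of its exon bases shared with another gene. Antisense RNAs asRNA:CR45396 and asRNA:CR46067 fell by 3.02 ± 0.14 and 2.98 ± 0.13, and share 74.8% and 88.0% of their exon bases with other genes. With the strand setting of the counting unknown, reads of these pairs cannot be told apart. Arts (-2.75 ± 0.12) and CG13492 (-2.92 ± 0.14) were the remaining falls. Each of the 24 genes kept its direction and its call under every alternative in which it was tested, and each was called in the same direction in the libraries labelled KD.

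**Figure D2:**
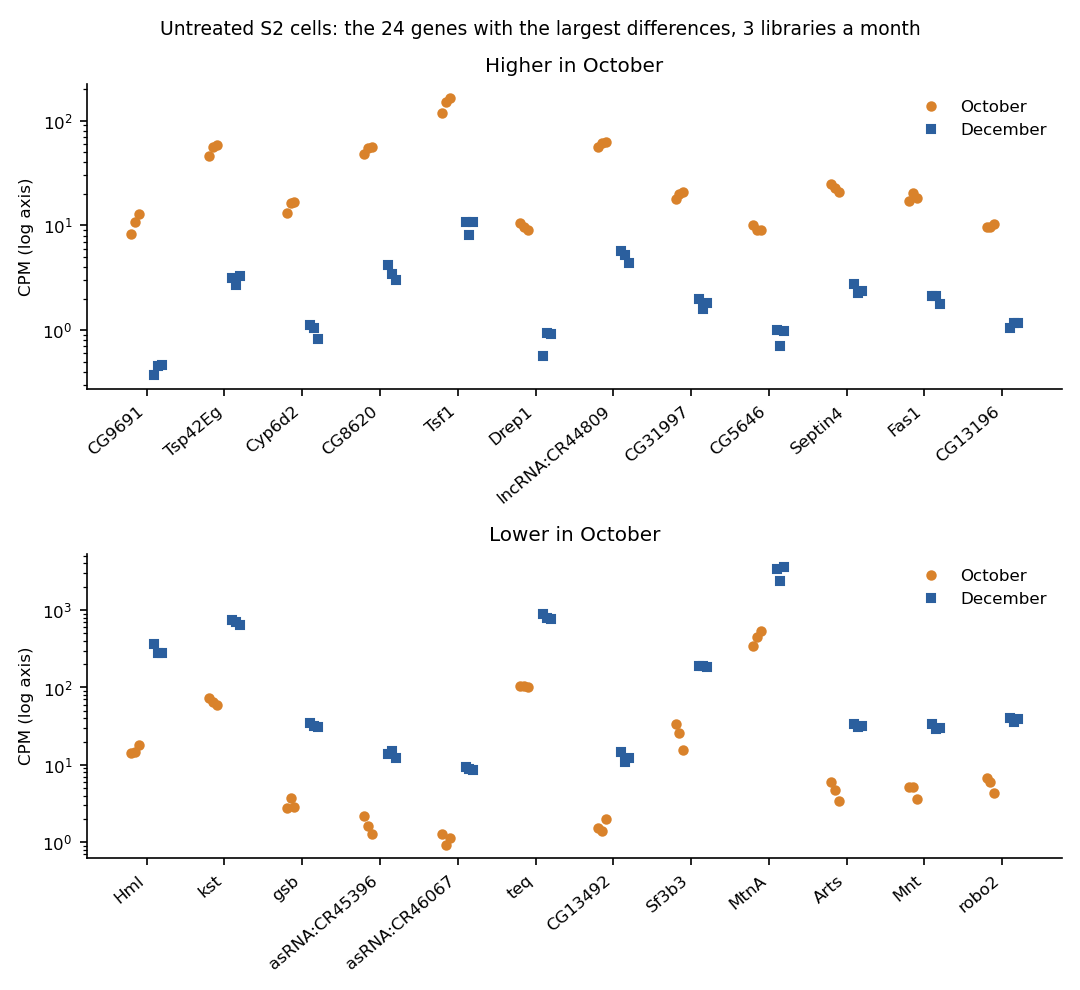
CPM in each WT library (log axis) of the 12 genes with the largest rise (top) and the 12 with the largest fall (bottom) in October among genes of 5 CPM or more; circles are October libraries and squares December libraries, 3 each. Absence of overlap between months was part of how these genes were chosen; Tsf1 lies at 118 to 164 CPM against 8.09 to 10.9, and Hml at 14.3 to 18.3 against 280.5 to 367.

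Gene groups were described by 52 lists of named function, of which 35 had a median below 0. Under plain totals 14 did, and the counts below are read against 32.4% of all genes higher and 33.0% lower. Abundant genes of any kind were more often called lower. The share was 64.7% at 100 to 200 CPM, 67.9% at 200 to 500 CPM and 81.7% over 500 CPM. Lists of high median level are to be read against those shares. Among them were cytoplasmic ribosomal proteins (3415 CPM), the basement membrane (618 CPM), translation factors (297 CPM), constitutive chaperones (249 CPM) and the proteasome (107 CPM). The list of the basement membrane had the lowest median with TMM and with plain totals. Of 15 members tested, 12 were lower and 1, nidogen (Ndg), was higher in October, with a median of -0.87, or -0.92 relative to all genes, and -0.49 with plain totals. Its members are long (a median of 6165 exon bases), and with the length trend removed the median was -0.52, above that of cytoplasmic ribosomal proteins (-0.62), DNA replication (-0.60) and the lysosome (-0.60). The list as a whole held 0.598% ± 0.0449 of all counts in October and 1.001% ± 0.0699 in December (exact permutation p = 0.1).

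Laminin is a trimer that starts the assembly of the sheet. LanB2, the gamma chain, had 325, 299 and 284 CPM in October and 1205, 1149 and 1070 CPM in December (-1.91 ± 0.07, adjusted p = 2.5e-14), and LanA, an alpha chain, had 807, 791 and 746 CPM in October and 2677, 2381 and 2330 CPM in December (-1.66 ± 0.08). Tiggrin (Tig), an integrin ligand, had 296, 300.3 and 304 against 1099, 987 and 956 CPM (-1.76 ± 0.07), and viking (vkg), a collagen IV chain, 395, 352 and 338 against 1250, 1209 and 1142 CPM (-1.73 ± 0.07). For each of these 4 genes the lowest December value was more than 2 times the highest October value.

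SPARC, which binds collagen IV, had a log2 difference of 0.15 and was not called. Of the cell surface partners of the matrix, the integrin alpha chain mew fell by 1.47 ± 0.10 and talin (rhea), which ties integrins to actin, by 1.33 ± 0.07. The teneurin Ten-a had 8.62 ± 0.328 CPM in October and 55.8 ± 4.12 CPM in December (SD, n = 3 each; -2.69 ± 0.07). The wider cell adhesion list was split, with 7 of 21 higher and 9 lower (median -0.25, and 0.12 with plain totals).

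Most mRNAs of lipid metabolism were lower in October. Of 25 genes of fatty acid and lipid metabolism, 20 were lower and 4 higher, with a median of -0.60 (-0.22 with plain totals). Acetyl-CoA carboxylase (ACC), the committed step of fatty acid synthesis, had 56.9, 54.4 and 46.7 CPM in October and 271, 243 and 252 CPM in December (-2.28 ± 0.08, adjusted p = 3.8e-15). Fatty acid synthase 1 (FASN1), which acts after it, had 333, 325 and 325 CPM in October and 1679, 1448 and 1475 CPM in December (-2.23 ± 0.07, adjusted p = 3.6e-15). Their levels were 4.85-fold and 4.68-fold lower in October without overlap, and AcCoAS, which makes acetyl-CoA from acetate, fell by 1.39 ± 0.07.

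SREBP, the factor that turns on these genes in flies, fell by 1.03, and its escort SCAP by 0.43. The desaturase Desat1 fell by 0.44, and like SCAP it was not called with plain totals. The lipase Lip4 went the other way, with 13.9, 15.3 and 15.2 against 4.57, 4.84 and 4.67 CPM (1.66 ± 0.09), as did Lip3 (1.69) and the thiolases yip2 (0.66) and Mtpbeta (0.17).

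Genes of the secretory route were mostly lower. In the list of coat, translocon and signal recognition genes, 22 of 29 were lower and 5 higher (median -0.51, and -0.14 with plain totals). The COPI coat subunits alphaCOP and beta'COP fell by 1.70 ± 0.08 and 1.37 ± 0.06, and the COPII scaffold Sec16 by 1.51 ± 0.07. The 5 members that were higher were Sec22, Srp14, Sec61beta, Srp9 and Sar1, at 0.15 to 0.52, of which all but Sec22 lost the call with the length trend removed.

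Chaperones of the endoplasmic reticulum moved with them. Of 16 genes of the unfolded protein response, 13 were lower, among them the disulfide isomerases CaBP1 (-1.35 ± 0.07) and ERp60 (-1.04 ± 0.06) and calreticulin (Calr; -1.17 ± 0.07), and the sensor Ire1 was higher (0.41). The median of -0.38 was -0.0061 with plain totals. Constitutive chaperones of the cytosol were lower in 12 of 16 cases, with Hsc70-4 at 1523, 1548 and 1404 against 2253, 2207 and 2354 CPM (-0.61 ± 0.07), and their median of -0.30 turned to 0.08 with plain totals.

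Genes of protein breakdown went mostly in the same direction. For the proteasome, 22 of 31 subunits were lower, led by the lid subunit Rpn8 (-1.15 ± 0.06) and the base subunit Rpn2 (-1.07 ± 0.06), and the median of -0.34 turned to 0.031 with plain totals. Among 17 lysosomal genes 11 were lower and 4 higher (median -0.54, -0.17 with plain totals). The mannosidase LManII and the hexosaminidase Hexo2 fell by 1.67 ± 0.08 and 1.28 ± 0.07, whereas the sterol binder Npc2b (1.98 ± 0.09) and the thioesterase Ppt1 (1.03 ± 0.06) were higher.

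Of 28 actin genes, 25 were lower and profilin (chic) was higher, at 0.46. Their median of -0.37 came to 0.0078 with plain totals, so that the direction of the group rests on the scaling. The larger falls were those of the GTPase Rho1 (-1.21 ± 0.07), the Arp2/3 subunit Arpc5 (-1.08 ± 0.07) and the filamin cheerio (cher; -0.96 ± 0.06), each past the shift of 0.38. The main beta tubulin, betaTub56D, had 710.2, 664 and 692 against 1720, 1866 and 1970 CPM (-1.43 ± 0.07).

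Of 34 DNA replication genes, 26 were lower in October and 4 higher, with a median of -0.53 (-0.16 with plain totals). The chromatin assembly factor Caf1-180 had 16.8, 14.3 and 15.04 CPM in October and 57.4, 56.4 and 52.6 CPM in December (-1.85 ± 0.07, adjusted p = 3.4e-14). The catalytic subunits of polymerases epsilon (PolE1; -1.71 ± 0.07) and alpha (PolA1; -1.48 ± 0.09) and thymidylate synthase (Ts; -1.58 ± 0.07) followed. All 6 subunits of the MCM helicase in the list, Mcm2, Mcm3, dpa (Mcm4), Mcm5, Mcm6 and Mcm7, were lower with TMM, by 0.37 to 1.03, while with plain totals dpa came to 0.0038 and Mcm3 lost its call. The members that were higher were RPA1, Orc5, Psf3 and Prim1, at 0.25 to 0.89.

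Genes of nucleotide synthesis went in the direction of the DNA replication genes, with 13 of 16 lower. Among these were the purine enzymes Pfas (-1.13 ± 0.06) and Gart (-1.10 ± 0.06). The median was -0.41, and -0.037 with plain totals. In the cell cycle list 18 of 31 were lower and 9 higher (median -0.47, and -0.096 with plain totals, where 14 were lower and 13 higher). The mitotic kinesin Klp61F (-1.55 ± 0.07) and the anaphase activator fizzy (fzy; -1.32 ± 0.07) were lower, as were CycB (-0.73), polo (-0.81) and string (stg; -0.61). The G1 genes CycD (0.28), Cdk4 (0.43) and Cdk2 (0.30) were higher.

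Most translation genes were lower in October than in December in WT with TMM. Of 47 initiation and elongation factors 32 were lower and 11 higher (median -0.44, -0.059 with plain totals). Elongation factor 2 (eEF2), which moves the ribosome along the mRNA, had 1510, 1232 and 1260 CPM in October and 4817, 4682 and 4836 CPM in December (-1.84 ± 0.08). The initiation factor subunits eIF3m and eIF3a fell by 2.02 ± 0.08 and 1.73 ± 0.07. Among 26 nucleolar genes 16 were lower and 3 higher (median -0.43, and -0.052 with plain totals, where 10 were higher and 9 lower), with the box C/D protein nop5 at -1.57 ± 0.09, the GTPase Non1 at -1.35 ± 0.07 and fibrillarin (Fib), which methylates ribosomal RNA, at -0.996 ± 0.07.

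Cytoplasmic ribosomal proteins were lower in 64 of 80 cases and higher in 3, with a median of -0.42 that came to -0.049 with plain totals (17 higher, 30 lower). RpL23 had 2633, 2563 and 2810 CPM in October and 7502, 7598 and 8567 CPM in December (-1.56 ± 0.08), and RpL3 and RpL4 fell by 1.57 ± 0.08 and 1.30 ± 0.08, all under both scalings. Among those of the highest level per length, RpL41 (-0.26 ± 0.10), RpLP2 (-0.32 ± 0.10), RpL39 (-0.37 ± 0.07), RpL29 (-0.23 ± 0.10) and RpL14 (-0.29 ± 0.09) changed sign with plain totals, and RpS23, not called with TMM (-0.14 ± 0.09), was called higher there (0.24). The calls of RpL41, RpLP2 and RpL29 were lost when single libraries were left out.

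Of 17 RNAs encoded in the mitochondrial genome, 9 were lower, 1 higher and 7 not called, and with plain totals 5 were lower and 3 higher (median -0.39, and -0.012 with plain totals). The mRNAs of cytochrome oxidase mt:CoIII and mt:CoI and of the NADH dehydrogenase subunit mt:ND5 were lower in October (-0.98 ± 0.08, -0.88 ± 0.08 and -0.97 ± 0.08). The ATP synthase mRNA mt:ATPase6 had 3426, 3956 and 4293 against 2181, 2089 and 2413 CPM and was higher (0.80 ± 0.09), and mt:lrRNA was not called (-0.16 ± 0.12). Of 81 nuclear genes of the respiratory chain, 23 were higher and 23 lower with TMM, 53 higher and 2 lower with plain totals, and 11 higher and 44 lower with the length trend removed. In central metabolism, pyruvate kinase (PyK) fell by 1.12 ± 0.07 and citrate synthase (kdn) differed by -0.9965 ± 0.06.

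Against this, inducible heat shock genes were higher in October. Of 15 tested, 11 were higher and the 4 others were not called, with a median of 1.72 (2.10 with plain totals). The median level of the list was 3.61 CPM, and of all genes of 1 to 5 CPM 59.0% were higher and 17.9% lower, with a median of 0.60. The small heat shock protein Hsp23, which holds unfolded proteins, had 107, 189 and 230.3 CPM in October and 21.7, 13.4 and 33.6 CPM in December (2.94 ± 0.24, adjusted p = 1.6e-09). The replicates were wide apart within each month, and the lowest October value was still over 3 times the highest in December. Hsp67Bc had 1.08, 2.08 and 2.56 against 0.316, 0.0614 and 0.145 CPM (3.45 ± 0.38) and Hsp70Bc 3.11, 7.58 and 8.59 against 0.303, 0.368 and 1.73 CPM (3.01 ± 0.41), a member of the near-identical Hsp70 copies among which reads cannot be assigned with certainty. Hsp26, Hsp27 and Hsp68 were higher by 2.72, 1.72 and 1.01.

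Genes of detoxification were mostly higher. Of 34 glutathione S-transferases, 24 were higher and 4 lower (median 1.26, and 1.64 with plain totals). GstO3 had 54.1, 54.2 and 59.2 CPM in October and 10.5, 10.02 and 12.51 CPM in December (2.34 ± 0.08, adjusted p = 6.7e-15), while the low members GstD6, GstD10 and GstD2 rose by 3.96 ± 0.23, 3.12 ± 0.15 and 2.03 ± 0.18. The most abundant member, GstD1, was higher by 0.60. GstD7, GstD3, GstZ1 and GstT4 were lower, by 0.34 to 0.84, and of these only GstD7 was called with plain totals.

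Of 63 cytochrome P450 genes tested, 39 were higher and 8 lower (median 0.83, and 1.21 with plain totals). Cyp12b2 had 3.98, 3.82 and 3.45 against 0.25, 0.111 and 0.132 CPM (4.51 ± 0.24), Cyp12a5 5.97, 6.48 and 6.59 against 1.75, 1.203 and 1.11 CPM (2.23 ± 0.15) and Cyp28d1 3.496, 3.59 and 2.51 against 0.803, 0.54 and 0.569 CPM (2.33 ± 0.20). Many of the cytochrome P450 genes lie at a few CPM or less (median level 1.22 CPM), where genes of any kind were more often higher in October (59.0% of genes of 1 to 5 CPM). The glutathione S-transferases had a median level of 26.6 CPM, and 26 of 34 had 1 CPM or more. Of all genes of 20 to 50 CPM, 26.2% were higher and 50.2% lower. Of 18 redox defence genes outside these families, 5 were higher and 6 lower with TMM, and 12 higher and 1 lower with plain totals (median 0.11, and 0.48 with plain totals).

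Genes of metal handling were split. Besides MtnA, the ZIP family metal transporter Zip99C (130.2, 124 and 125 against 476, 375 and 529 CPM, -1.86 ± 0.09) and the ferritin heavy chain Fer1HCH (1351, 1349 and 1386 against 3942, 3009 and 3656 CPM, -1.38 ± 0.09) were lower in October, as was the light chain Fer2LCH (-1.09). The transferrins Tsf1, Tsf2 (0.41) and Tsf3 (0.51) were higher. Over the list, 10 of 22 were higher and 6 lower (median 0.093, and 0.46 with plain totals).

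Regulators of stress and death were split. The TORC1 inhibitor scylla (scyl) had 126, 147 and 148 against 55.8, 46.3 and 46.8 CPM (1.497 ± 0.08), Gadd45 63.7, 66.5 and 70.6 against 30.2, 29.7 and 33.4 CPM (1.10 ± 0.07), and the phosphatase subunit PPP1R15, which reverses eIF2alpha phosphorylation, 119.8, 124 and 128 against 61.6, 59.0 and 58.0 CPM (1.06 ± 0.06). In the same list of the integrated stress response, Sesn (-1.02 ± 0.07; 67.3% exon overlap) and the ATF4 ortholog crc (-0.65) were lower. In the apoptosis list 8 of 16 were higher and 2 lower (median 0.45, and 0.82 with plain totals). The initiator caspase Dronc (0.92 ± 0.06), the Bcl-2 relative Debcl (1.06 ± 0.06) and p53 (1.22 ± 0.06; 38.0% exon overlap) were higher, and the caspase inhibitor Diap1 was lower (-0.86 ± 0.06).

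Immune genes were split between pathways. In JAK/STAT signalling, the ligand upd3 had 15.3, 16.6 and 15.2 CPM in October and 3.91, 2.90 and 5.45 CPM in December (1.95 ± 0.14), and the ligand upd2 rose by 1.15. The stress peptides TotM (208, 206 and 142 against 57.6, 49.7 and 67.0 CPM, 1.68 ± 0.12) and TotA (2.20 ± 0.19), the thioester protein Tep1 (2.79 ± 0.16) and the feedback inhibitor Socs36E (0.82) were higher as well. The receptor dome (-1.02) and the kinase hop (-0.73) were lower, and the transcription factor Stat92E was not called (0.0057). Over the list, 8 of 15 were higher and 3 lower (median 0.36, 0.73 with plain totals).

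Antimicrobial peptides had no common direction, with 4 higher and 6 lower of 15 (median -0.42, and -0.03 with plain totals). Drosomycin (Drs) had 18.5, 24.8 and 26.6 against 4.90, 3.65 and 4.84 CPM (2.39 ± 0.12) and CecC 26.8, 29.6 and 32.1 against 9.65, 9.13 and 6.64 CPM (1.80 ± 0.10). On the other side, edin had 3.15, 3.40 and 4.79 against 6.76, 4.996 and 22.5 CPM (-1.59 ± 0.36) and CecA2 4.77 ± 0.748 CPM in October and 12.3 ± 6.78 CPM in December (SD, n = 3 each; -1.36 ± 0.24). The Imd inhibitor pirk had 10.1, 9.21 and 9.02 CPM in October and 30.2, 21.8 and 119.6 CPM in December (-2.60 ± 0.39, adjusted p = 7.6e-06), and the NF-kappaB factor Relish (Rel) 52.7, 50.7 and 57.7 against 114.7, 101 and 173 CPM (-1.27 ± 0.13). December replicate 3 was the highest library for edin, CecA2, pirk and Rel. Without it, the median of the antimicrobial list went from -0.42 to 0.23, while the differences of edin, CecA2, pirk and Rel came to -0.64, -0.81, -1.46 and -1.005 and were still called lower.

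Receptors for engulfment were higher in 15 of 23 cases and lower in 3 (median 1.46, and 1.83 with plain totals). Draper (drpr), which recognizes apoptotic cells, had 63.1, 60.8 and 59.4 CPM in October and 16.6, 13.04 and 13.8 CPM in December (2.07 ± 0.08, adjusted p = 2.7e-14). NimB2 had 1.45, 1.84 and 1.98 against 0.342, 0.331 and 0.344 CPM (2.37 ± 0.23), whereas NimC4 had 0.426, 0.332 and 0.312 against 2.28, 1.72 and 2.04 CPM (-2.48 ± 0.22). Among the 12 receptors of 1 CPM or more the median was 0.23 rather than 1.46. The median level of the list was 1.05 CPM. Of all genes, 46.4% were higher at 0.1 to 1 CPM and 59.0% at 1 to 5 CPM.

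Growth factor ligands went in both directions. Vein (vn), a ligand of the EGF receptor, had 35.6, 38.5 and 39.96 CPM in October and 8.82, 8.04 and 7.32 CPM in December (2.24 ± 0.08), and Pvf1, a ligand of the PDGF and VEGF receptor Pvr, had 123, 115.1 and 114.9 against 50.2, 47.6 and 47.1 CPM (1.28 ± 0.06). Pvf2 was lower (332, 338 and 322 against 721, 699.7 and 736 CPM, -1.12 ± 0.06), as was Pvr itself (-0.91). The secreted EGF receptor inhibitor argos (aos) had 260.2, 247 and 253 against 883, 884 and 719 CPM (-1.71 ± 0.08). The Notch ligand Serrate (Ser; -1.97 ± 0.11), the Hedgehog receptor ptc (-1.68 ± 0.08) and the clock factor vrille (vri; -1.24 ± 0.07) were lower too.

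Lists of non-coding RNAs differed in direction. Of 590 long non-coding RNAs tested, 208 were higher and 87 lower (median 0.51, and 0.88 with plain totals). The median level of the list was 0.199 CPM, and of all genes of 0.1 to 1 CPM 46.4% were higher and 10.9% lower. The largest differences among its called members of 1 CPM or more were those of lncRNA:CR44183 (4.21, 6.11 and 4.98 against 0.0527, 0.0859 and 0.0662 CPM, 6.18 ± 0.25) and lncRNA:CR44135 (3.94, 5.27 and 5.77 against 0.0527, 0.0982 and 0.119 CPM, 5.76 ± 0.25). Of 375 antisense RNAs 101 were higher and 130 lower, with asRNA:CR43866 at 4.95 ± 0.22 and asRNA:CR45896 at -3.60 ± 0.19, and the median of -0.16 turned to 0.21 with plain totals. Of 109 small nucleolar and Cajal body RNAs, 8 were higher and 8 lower, and 19 higher and 6 lower with plain totals.

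**Figure D3:**
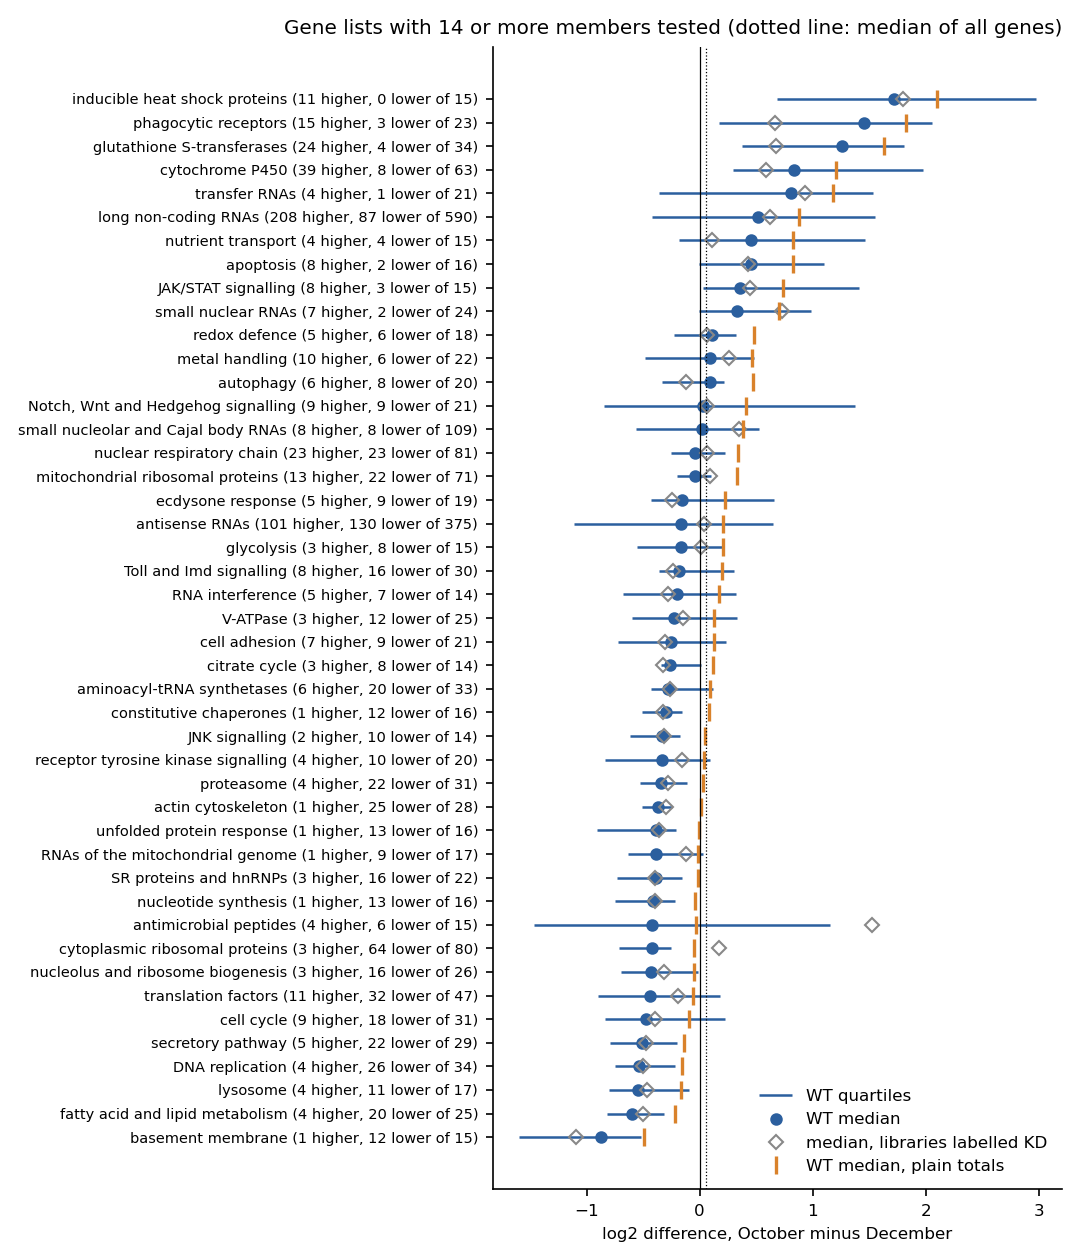
Log2 difference, October minus December, for the 45 lists with 14 or more members tested; filled circles are WT medians, lines the quartiles of the members, orange ticks the WT medians with plain totals, open diamonds the medians in the libraries labelled KD, and the dotted line the median of all genes (0.052). Heat shock proteins, phagocytic receptors and glutathione S-transferases lie above 1 and the basement membrane below -0.8; ticks right of 0 beside circles left of it, as for the proteasome and actin genes, mark lists whose direction turns with the scaling.

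The same month contrast could be drawn in the 7 libraries labelled KD, which share no library with the WT comparison but may share a batch with it. There 4013 genes were higher and 3652 lower in October, 63.7% of 12036 tested (33.3% higher and 30.3% lower). Of the 7634 genes called in WT, 6139 were also called in the same direction there (80.4% of the WT calls and 80.1% of the KD calls), and 117 were called in the opposite direction. Groups that kept their side included the basement membrane (median -1.09), lipid metabolism (-0.50), DNA replication (-0.50), heat shock proteins (1.80) and glutathione S-transferases (0.67). Other medians changed side, among them those of cytoplasmic ribosomal proteins, antimicrobial peptides, autophagy (0.093 in WT, -0.12 in KD) and the integrated stress response (0.48 in WT, -0.32 in KD). In the last list, 11 of 13 members were still called in the same direction in both.

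**Figure D4:**
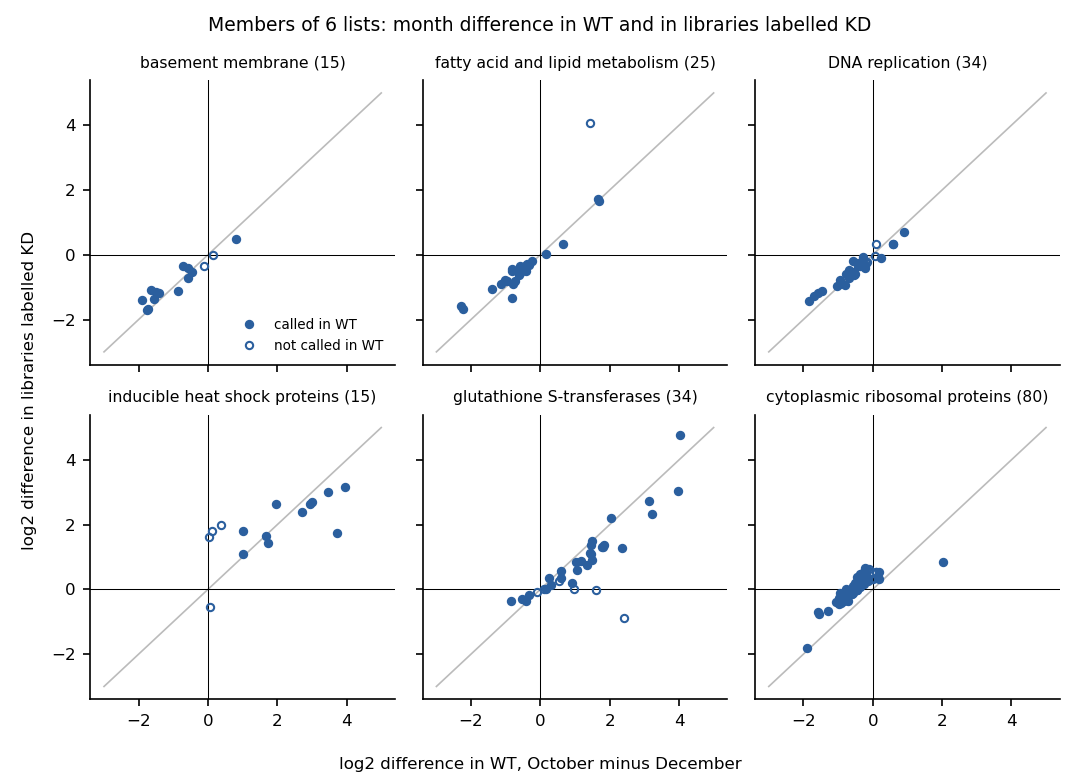
Log2 difference, October minus December, of each member of 6 lists in WT (horizontal) and in the libraries labelled KD (vertical); the grey line marks equal values, and filled points were called in WT. In the first 5 lists no member was called in opposite directions in WT and in the libraries labelled KD. Sizes could differ, as for glutathione S-transferases, with a median of 1.26 in WT and 0.67 in the libraries labelled KD. Cytoplasmic ribosomal proteins lie mostly above the line, with a median of -0.42 in WT and 0.18 in the libraries labelled KD.

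The month difference itself differed between WT and the libraries labelled KD for 1784 of 12652 genes by the interaction term of a fit on 13 libraries (14.1%; 730 higher and 1054 lower in WT). Of the cytoplasmic ribosomal proteins, 76 of 80 had an interaction call, 27 were called in opposite directions, and 42 were higher in October in the libraries labelled KD. Their median there was 0.18. With plain totals the WT median of this list was -0.049. That scaling was not run for the libraries labelled KD or for the interaction, so how far these counts depend on it was not tested. Of the antimicrobial peptides, 12 of 15 had such a call, and 14 were higher in the libraries labelled KD (median 1.52). An interaction was also called for 11 of 34 glutathione S-transferases, 5 of 15 basement membrane genes and 7 of 25 genes of lipid metabolism. For DNA replication it was called in 7 of 34 genes, and for inducible heat shock proteins in 3 of 15.

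MtnA was among the genes with a difference between the contrasts. In the libraries labelled KD it had 895, 966, 808 and 903 CPM in October and 1008, 1462 and 1356 CPM in December, a difference of -0.51 against -2.82 in WT (interaction -2.29, adjusted p = 3.4e-10). Dawdle (daw), an activin-type ligand, had 37.0, 28.3 and 23.4 CPM in October and 11.9, 12.6 and 10.2 CPM in December in WT, and 16.0, 12.6, 12.3 and 12.9 CPM in October and 17.0, 16.6 and 17.8 CPM in December in the libraries labelled KD. Its month difference thus went from 1.35 to -0.35 (interaction 1.72, adjusted p = 5.6e-09), and the months lay on opposite sides.

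Septin4 and lncRNA:CR44138 were higher in October in both, by 3.22 and 2.94 in WT and by 1.71 and 1.38 in the libraries labelled KD. The immune genes edin and pirk had interactions of -2.65 and -1.89. For both, WT December replicate 3 lay far above the other WT libraries, at 22.5 CPM for edin and 119.6 CPM for pirk. Hml, lncRNA:CR44809 and CG31997 had interactions of -0.18, -0.036 and 0.091, none of which passed the test.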

How the data were processed

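Total RNA depleted of ribosomal RNA was sequenced from both ends. Per the submitters' processing notes and the study's methods, STAR 2.6 was the aligner (build BDGP6) and HTSeq 0.10.0 the counter, and FastQC 0.10.1 and DESeq2 are also named. The deposited values were raw counts per gene, which the authors had not normalized. No source used here states the strand setting, the annotation release or how multi-mapping reads were counted. Counting error is small at this depth: at 100 to 200 CPM the median counting error of an October library was 1.12% and the SD between replicates 4.16%, and at 1 to 2 CPM they were 9.28% and 14.1%.

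Genes with 10 or more counts over the 6 WT libraries were fitted with edgeR 4.0.16 (TMM scaling, quasi-likelihood test, Benjamini-Hochberg threshold 0.05) in R 4.3.3. The SE was the absolute log2 difference divided by the square root of the test's F statistic. Log CPM for the correlations between libraries used a prior count of 2. The libraries labelled KD were fitted by themselves, and the interaction in 1 fit on 13 libraries. Names, coordinates and exon lengths came from Ensembl 115 of BDGP6, which matched 17599 of 17737 genes. The code was tested on simulated data. Alternatives were DESeq2 1.42.0 and other scalings, filters and length correction, a test against 1.5-fold, and leaving out each library.

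The members, the gene lists and the tests were chosen with earlier results of these data known. Genes named by rule were the 12 largest rises and 12 largest falls of 5 CPM or more without overlap, the 10 highest per kilobase, up to 4 called members of 1 CPM or more in a list by size of the difference, cell type markers, 3 genes in each direction of the interaction and Parp1. Other list members were named after their values were seen. A gene that the rule picks is not reported here.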

Additional observations from a re-analysis of the deposited data

Results flagged for a closer look

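The month difference differed between WT and the libraries labelled KD for 1784 of 12652 genes by the interaction term of edgeR's quasi-likelihood test, and for 99 of the 203 genes given here with a value in WT. The values below are the WT difference minus the difference in the libraries labelled KD, on the log2 scale. Since both contrasts hold a month and a batch, the 2 cannot be told apart in them.

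Among the largest rises, the interaction was 0.99 for Tsp42Eg, 1.02 for Tsf1, 0.75 for Drep1, 0.95 for CG5646, 1.52 for Septin4, 0.58 for Fas1 and 0.53 for CG13196, so that each rose by more in WT. Among the largest falls it was -0.85 for kst, -0.78 for asRNA:CR45396, -0.70 for asRNA:CR46067, -0.63 for teq, -0.89 for Sf3b3, -2.29 for MtnA, -0.76 for Arts and -0.74 for Mnt, so that each fell by more in WT. The interaction was called for 15 of these 24 extremes, and the others are not listed here. All 24 were picked for a large WT difference, which also enters the interaction. A larger size in WT was therefore favored by the choice and is no separate result.

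The 10 RNAs of the highest level per length all had a lower October level relative to December in WT than in the libraries labelled KD. The interaction was -1.10 for mt:lrRNA, -0.79 for RpL41, -0.73 for RpLP2, -0.84 for RpL39, -0.71 for RpL21, -0.97 for mt:CoIII, -0.90 for RpL29, -0.80 for RpL23, -0.46 for RpS23 and -0.60 for RpL14. Over the list of cytoplasmic ribosomal proteins 76 of 80 had such a call, and of the antimicrobial peptides 12 of 15. Plain totals were not run for the interaction. The single values were -1.46 for CecC, -2.65 for edin and -1.89 for pirk, and 1.72 for daw and 1.57 for lncRNA:CR44138.

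In the 4 October libraries labelled KD, replicate 1 stood apart in daw, with a gap of 0.844 of the group's whole range. It had 15.97 CPM, against 12.61, 12.33 and 12.90 CPM in the others. In lncRNA:CR44138 a different library, replicate 3, stood apart, with a gap of 0.886. It had 11.35 CPM, against 9.993, 10.01 and 9.838 CPM in the others. Of 8 such groups looked at, about 1 in 20 would be marked by chance alone.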

How the results depend on the processing

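Of the 197 genes called in WT and given with a value, 156 kept direction and call under every alternative, and 10 lost either under an alternative other than plain totals or the test against 1.5-fold: RpL41, RpLP2, RpL29, RpL14, Sec61beta, Mtpbeta, Srp9, Srp14, Sar1 and peb. With plain totals 76.0% of calls were higher in October (49.5% with TMM) and 14 lists had a median below 0 in place of 35. The log2 difference then turned to 0.21 for mt:lrRNA, 0.11 for RpL41, 0.061 for RpLP2, 0.0089 for RpL39, 0.14 for RpL29, 0.24 for RpS23, 0.081 for RpL14, 0.0038 for dpa and 0.039 for GstT4. Srp9 came to -0.058 with the length trend removed, and Stat92E, not called, ran from -0.020 to 0.051 when 1 library was left out. Tested against 1.5-fold, 3364 genes were called (1967 higher, 1397 lower). Without mitochondrial RNAs in the denominator the October minus December share was 0.143 percentage points for long non-coding RNAs (0.118 with them) and 0.0762 for genes under 1 CPM (0.0644 with them). Leaving out 1 library gave 7089 to 7355 calls in WT, 7158 to 7478 in the libraries labelled KD and 1416 to 1857 for the interaction, and 6461 WT calls held with each library left out. DESeq2 called 7270. At lower depth, with counts thinned to the lowest total, 7508 were called.

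The replicate numbers did not pair the samples: deviations of same-numbered October and December libraries correlated at 0.0959, -0.114 and 0.249, and not every library correlated best with its own number. With the replicate number as a block, 3713 genes were higher and 3899 lower (48.8% of calls higher), 35 lists had a median below 0, and 1886 genes had an interaction call. Correction for GC content and promoter motif shares were not run, since no genome sequence was used here.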
